A study of Mus musculus with 2 samples.

Results

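The genes described are 9 costimulatory receptors and TNF family ligands of T cells, Icos, Cd28, Cd27, Tnfrsf9, Tnfrsf4, Tnfrsf18, Cd40lg, Tnfsf11 and Ltb. They are a named list, drawn up with earlier results of these data known, and all 9 were among the 11971 genes of the count table. They were followed in TCRb+CD4+ cells sorted from the colons of 12 Rag-deficient mice. In such hosts, the T and B lineages alone fail to mature. Recipients of BCL-6-deficient CD4 T cells are called KO-labelled here (6 mice). Recipients of wild-type CD4 T cells, naive or CD45RBhigh and CD25-negative, are called WT-labelled (6 mice). The transfer is a model of colitis. How Bcl6 was deleted, how many donors there were, and the age and sex of the mice are not stated in the sources used here, so p-values measure the spread between recipient mice.

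A T cell that meets its antigen also needs costimulation. CD28 and ICOS are immunoglobulin-type receptors that bind B7 family ligands and recruit phosphoinositide 3-kinase. CD27, CD137 (Tnfrsf9), OX40 (Tnfrsf4) and GITR (Tnfrsf18) belong to the TNF receptor superfamily, which signals through TRAF adaptors to NF-kappaB, and OX40 and GITR are known to be high on regulatory T cells. T cells also send signals through TNF family ligands: CD40 ligand to B cells and dendritic cells, RANK ligand (Tnfsf11) to RANK on bone, lymphoid and epithelial cells, and lymphotoxin beta (Ltb), with lymphotoxin alpha, to the lymphotoxin beta receptor of stromal and epithelial cells. BCL-6 is a transcriptional repressor best known as the defining factor of follicular helper T cells.

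The count table held 57634998 UMIs in 18860 cells of 1 pooled library, with 4252124 to 5523025 UMIs and 1409 to 1736 cells a mouse. Depth was lower in KO-labelled mice, whose cells had a median of 2630 ± 244 UMIs a cell against 2945 ± 88.3 in WT-labelled mice (SD over the mice's medians, n = 6 each), and their median mitochondrial share was 0.815% against 0.896%. The authors' clusters were used: recirculating, cytotoxic, Th17, cycling and regulatory cells, and clusters 1 and 3, which carry no subset name and are called unnamed 1 and unnamed 3. Foxp3 and Gzmk, which mark regulatory and cytotoxic cells, were each highest in the cluster of that name in both genotypes. So were the summed regulatory, cytotoxic, Th17 and cycling marker lists. Regulatory cells came next for the cytotoxic markers (means of 6362 CPM in KO-labelled and 5560 CPM in WT-labelled mice). They were highest for the recirculating markers (1494 and 2178 CPM, against 676 and 729 CPM in recirculating cells). The recirculating cluster keeps the authors' name here. Unnamed 1 made up 32.6 ± 8.71% of the cells of KO-labelled mice and 8.37 ± 2.25% of those of WT-labelled mice, unnamed 3 made up 23.1 ± 11.5% and 7.55 ± 1.60%, cytotoxic cells 8.63 ± 4.52% and 33.2 ± 6.77%, and Th17 cells 5.83 ± 2.78% and 18.0 ± 5.98%. Bcl6 itself was higher in KO-labelled mice (81.1 ± 11.3 CPM against 56.4 ± 7.93 CPM in WT-labelled mice, a log2 fold change of 0.48 ± 0.10, adjusted p = 0.00398). Reads from the 5′ end need not cover a deleted part, so Bcl6 UMIs check no label.

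Over all CD4 T cells, 5 of the 9 genes rose in KO-labelled mice, Tnfsf11, Cd40lg, Tnfrsf9, Cd28 and Tnfrsf18, and 2 fell, Cd27 and Ltb. Icos and Tnfrsf4 did not pass. The count of 7 called genes fell to 3 or 4 when KO-labelled mouse 1, 2, 3 or 5, or WT-labelled mouse 1, 3, 5 or 6, was left out singly. It was 3 without KO-labelled mice 1 and 2 together, and also 3 with every cluster at the same weight in each mouse, where Tnfsf11 alone of the 5 rises passed. Of all 9861 genes tested in the same way, 14.2% were called (edgeR quasi-likelihood test, Benjamini-Hochberg adjusted p under 0.05, UMIs summed per mouse), 7.04% higher and 7.21% lower. Levels are given in CPM, UMIs scaled to the total of the mouse or of its cells in a cluster, with the SD over mice, and each log2 fold change is KO-labelled over WT-labelled with its standard error. Within clusters, mice with at least 20 cells were compared. In recirculating cells 5 of the 8 genes tested were called (5.48% of all genes), in unnamed 1 3 of 8 (4.65%), in unnamed 3 4 of 8 (8.42%), in cytotoxic cells 2 of 9 (2.89%), in cycling cells 1 of 8 (5.36%) and in regulatory cells 1 of 8 (0.513%). In Th17 cells 0 of 8 were called (5.09% of all genes), although 4 had an unadjusted p under 0.05, and DESeq2 also called 0. Cd27 was too low to be tested in recirculating, unnamed 1, unnamed 3, Th17 and cycling cells, and Cd40lg in regulatory cells.

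**Figure D1:**
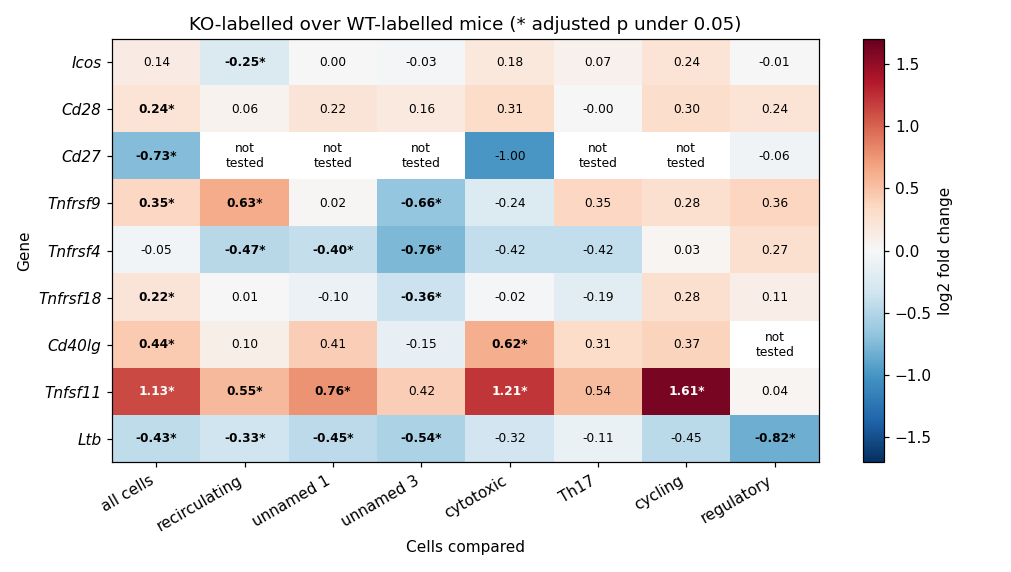
Log2 fold change of each gene (rows), KO-labelled over WT-labelled mice, over all cells and within each cluster (columns), from edgeR on UMIs summed per mouse. Stars mark an adjusted p under 0.05. Tnfsf11 is positive and Ltb negative in every column, while Tnfrsf9 is 0.63 in recirculating and -0.66 in unnamed 3 cells.

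Tnfsf11, which encodes RANK ligand (chromosome 14, 78277445 to 78308043, minus strand, GRCm38), showed the largest rise of the 9 genes over all cells. KO-labelled mice ranged from 223 to 557 CPM with a median of 386 CPM, and WT-labelled mice from 135 to 234 CPM with a median of 167 CPM. The highest WT-labelled mouse, mouse 6, lay above KO-labelled mouse 6, and the other 5 KO-labelled mice lay above every WT-labelled mouse. The log2 fold change was 1.13 ± 0.19 (edgeR adjusted p = 0.00106). It was 0.84 ± 0.17 without KO-labelled mice 1 and 2 (adjusted p = 0.00566), which had the highest Tnfsf11 levels and also the fewest recirculating and cytotoxic cells.

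The rise in Tnfsf11 was largest in cycling cells, where the genotypes did not overlap (the case for 3.27% of the genes tested there). Cycling cells of KO-labelled mice ranged from 236 to 446 CPM with a median of 330 CPM, and those of WT-labelled mice from 59.6 to 156 CPM with a median of 101 CPM (log2 fold change 1.61 ± 0.18, adjusted p = 4.35e-06). Cytotoxic cells held the least Tnfsf11 in both genotypes, at 70.4 to 101 CPM in KO-labelled and 23.2 to 78.6 CPM in WT-labelled mice, and the gene rose there too (1.21 ± 0.23, adjusted p = 0.00209). There, 1 WT-labelled mouse, mouse 6, overlapped the KO-labelled mice, and the other 5 had at most 36.7 CPM. The 6 cytotoxic markers in these cells summed to 8812 to 14993 CPM in KO-labelled and 18487 to 23310.1 CPM in WT-labelled mice, without overlap, and their part in the differences within this cluster was not tested. In cycling cells the same markers summed to 2087 to 3376 CPM in KO-labelled and 3340 to 5467 CPM in WT-labelled mice. The cycling cluster may thus hold several cell types in unlike shares, and the part of this in its Tnfsf11 rise was not tested. Tnfsf11 also rose in unnamed 1 (530.8 ± 147 CPM in KO-labelled and 307 ± 89.5 CPM in WT-labelled mice, a log2 fold change of 0.76 ± 0.17, adjusted p = 0.00553) and in recirculating cells (221 ± 50.6 CPM and 141 ± 43.6 CPM, 0.55 ± 0.16, adjusted p = 0.0446). The call in recirculating cells was lost with DESeq2 (adjusted p = 0.165), without KO-labelled mice 1 and 2 together (0.45 ± 0.17, adjusted p = 0.183) and when KO-labelled mouse 1, 2, 3 or 4, or WT-labelled mouse 1, 3, 4 or 5, was left out singly (adjusted p from 0.0561 to 0.133). In unnamed 3 the value was 0.42 ± 0.14 (adjusted p = 0.0557), and it passed when KO-labelled mouse 4, 5 or 6, or WT-labelled mouse 1 or 6, was left out singly (adjusted p from 0.0123 to 0.0435). In Th17 cells it was 0.54 ± 0.20 (adjusted p = 0.144; 0.0117 if KO-labelled mouse 6 is left out), with KO-labelled mice spread from 276 to 909 CPM against 284 to 457 CPM in WT-labelled mice. In regulatory cells it was 0.04 ± 0.46 (adjusted p = 0.990).

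Ltb, which encodes lymphotoxin beta (chromosome 17, 35194439 to 35196320, plus strand), went the other way. Over all cells it stood between 355 and 727 CPM in KO-labelled mice, with a median of 496 CPM, and between 613 and 717 CPM in WT-labelled mice, with a median of 692 CPM. The WT-labelled mice lay close together, whereas KO-labelled mice 1, 2, 3 and 5 lay below all of them, mouse 6 within their range and mouse 4 above it. The log2 fold change was -0.43 ± 0.14 (edgeR adjusted p = 0.0425). That call was lost when KO-labelled mouse 1, 2, 3 or 5, or WT-labelled mouse 1, 2, 3, 4 or 6, was left out singly (adjusted p from 0.0619 to 0.0971), and without KO-labelled mice 1 and 2 together, the mice with the least Ltb, the value was -0.25 ± 0.10 (adjusted p = 0.155).

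Within clusters, Ltb fell in recirculating cells (591 ± 83.1 CPM in KO-labelled and 724 ± 48.3 CPM in WT-labelled mice, a log2 fold change of -0.33 ± 0.07, adjusted p = 0.00439), in unnamed 1 (535 ± 157 CPM and 695 ± 64.7 CPM, -0.45 ± 0.13, adjusted p = 0.0483), in unnamed 3 (342 ± 90.3 CPM and 459 ± 56.3 CPM, -0.54 ± 0.13, adjusted p = 0.00657) and in regulatory cells (-0.82 ± 0.17, adjusted p = 0.0296). In regulatory cells, 5 KO-labelled mice had 768, 582, 759, 885 and 854 CPM, and 3 WT-labelled mice had 1546, 995 and 1407 CPM. The genotypes did not overlap there, which held for 6.84% of the genes tested in these cells. The regulatory call was lost when KO-labelled mouse 1 or 2, or WT-labelled mouse 1 or 6, was left out singly (adjusted p from 0.101 to 0.166) and when mice with at least 10 cells were taken (-0.59 ± 0.16, adjusted p = 0.0739). The unnamed 1 call was lost with DESeq2 (adjusted p = 0.0821) and when KO-labelled mouse 1, 2, 3 or 5, or WT-labelled mouse 1, 2, 3, 4 or 6, was left out singly (adjusted p from 0.0670 to 0.136). Without KO-labelled mice 1 and 2 together, the recirculating call held (-0.25 ± 0.07, adjusted p = 0.0406) and the unnamed 1, unnamed 3 and regulatory calls were lost (adjusted p = 0.263, 0.101 and 0.309). In cytotoxic, cycling and Th17 cells the values were -0.32 ± 0.11, -0.45 ± 0.15 and -0.11 ± 0.10 (adjusted p = 0.105, 0.0816 and 0.663). The cytotoxic value passed without KO-labelled mouse 4 (adjusted p = 0.0135) and the cycling value without mouse 4 or mouse 6 (0.0129 and 0.0139).

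B cells also express Ltb, so B or plasma cell markers are given beside it. The 3 of 7 such markers analysed here summed to 12.2 to 26.7 CPM over all cells of KO-labelled mice and 22.3 to 38.9 CPM in WT-labelled mice. In regulatory cells they summed to 254 to 581 CPM in KO-labelled and 461 to 491 CPM in WT-labelled mice, most of it Ighm (260.1 ± 29.8 CPM and 347 ± 22.3 CPM). In cytotoxic cells they summed to 4.94 to 29.7 CPM in KO-labelled and 33.2 to 122 CPM in WT-labelled mice, without overlap. In recirculating cells, where Ltb fell, they summed to 13.9 to 34.6 CPM in KO-labelled mice, against 9.55 to 16.6 CPM in WT-labelled mice. Their part in the Ltb difference was not tested.

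The stretches before the start of Tnfsf11 and Ltb are shown because these ligands moved in opposite directions. They are taken from the 250 bases before the RefSeq start (GRCm38.p6), keep no base of an annotated GENCODE M21 exon, and are written 5′ to 3′ on the gene's strand. Capitals mark matches to a kappaB-type pattern (GGG, any 5 bases, then CC) on either strand, a pattern found in 45.8% of 32851 such windows. The Tnfsf11 stretch is chr14:78308044-78308293 (minus strand) and the Ltb stretch chr17:35194257-35194438 (plus strand).
Tnfsf11: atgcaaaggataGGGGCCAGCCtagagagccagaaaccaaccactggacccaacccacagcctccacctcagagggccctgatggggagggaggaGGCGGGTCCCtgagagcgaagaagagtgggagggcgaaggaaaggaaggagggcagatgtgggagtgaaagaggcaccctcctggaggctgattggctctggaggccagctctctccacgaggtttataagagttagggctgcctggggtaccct
Ltb: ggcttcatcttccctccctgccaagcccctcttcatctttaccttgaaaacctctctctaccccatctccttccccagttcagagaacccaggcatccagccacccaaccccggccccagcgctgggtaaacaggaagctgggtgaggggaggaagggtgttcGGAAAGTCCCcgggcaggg
Tnfsf11 had 2 separate matches. Ltb had 1 in the stretch shown and 1 more stretch of overlapping matches in the part of its window that GENCODE counts as exon. The BCL6-type pattern TTCCTNGAA, present in 1.31% of windows, matched in no window of the 6 genes found in the table (Tnfrsf9, Tnfrsf4, Tnfrsf18, Cd27, Tnfsf11 and Ltb). The matches are a description of these letters.

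Cd40lg, which encodes CD40 ligand (chromosome X, 57212143 to 57224042, plus strand), rose over all cells. KO-labelled mice ranged from 178 to 257 CPM with a median of 247 CPM, and WT-labelled mice from 123 to 210 CPM with a median of 168 CPM (log2 fold change 0.44 ± 0.11, edgeR adjusted p = 0.0136). The genotypes overlapped, with KO-labelled mouse 6 and mouse 4 below WT-labelled mouse 6, the highest of its group. Within clusters Cd40lg rose in cytotoxic cells, with a median of 173 CPM (94.6 to 217) in KO-labelled and 106 CPM (96.8 to 136) in WT-labelled mice (0.62 ± 0.12, adjusted p = 0.00277). There, 5 KO-labelled mice lay above every WT-labelled mouse, and KO-labelled mouse 2, from 10 UMIs, lay below all of them. The value was 0.41 ± 0.15 in unnamed 1 (adjusted p = 0.113, and 0.0237 without WT-labelled mouse 6), 0.37 ± 0.12 in cycling cells (0.0875, and 0.0249 without KO-labelled mouse 6), 0.31 ± 0.15 in Th17 cells (0.327), 0.10 ± 0.08 in recirculating cells (0.653) and -0.15 ± 0.12 in unnamed 3 (0.568). In regulatory cells Cd40lg had its lowest mean, with 12 UMIs in 5 KO-labelled mice (0 to 50.6 CPM) and 21 UMIs in 3 WT-labelled mice (54.8 to 112 CPM), and was not tested. Without KO-labelled mice 1 and 2, the value over all cells was 0.39 ± 0.13 (adjusted p = 0.0755). With all 12 mice and every cluster at the same weight it was 0.23 ± 0.10 (adjusted p = 0.156).

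**Figure D2:**
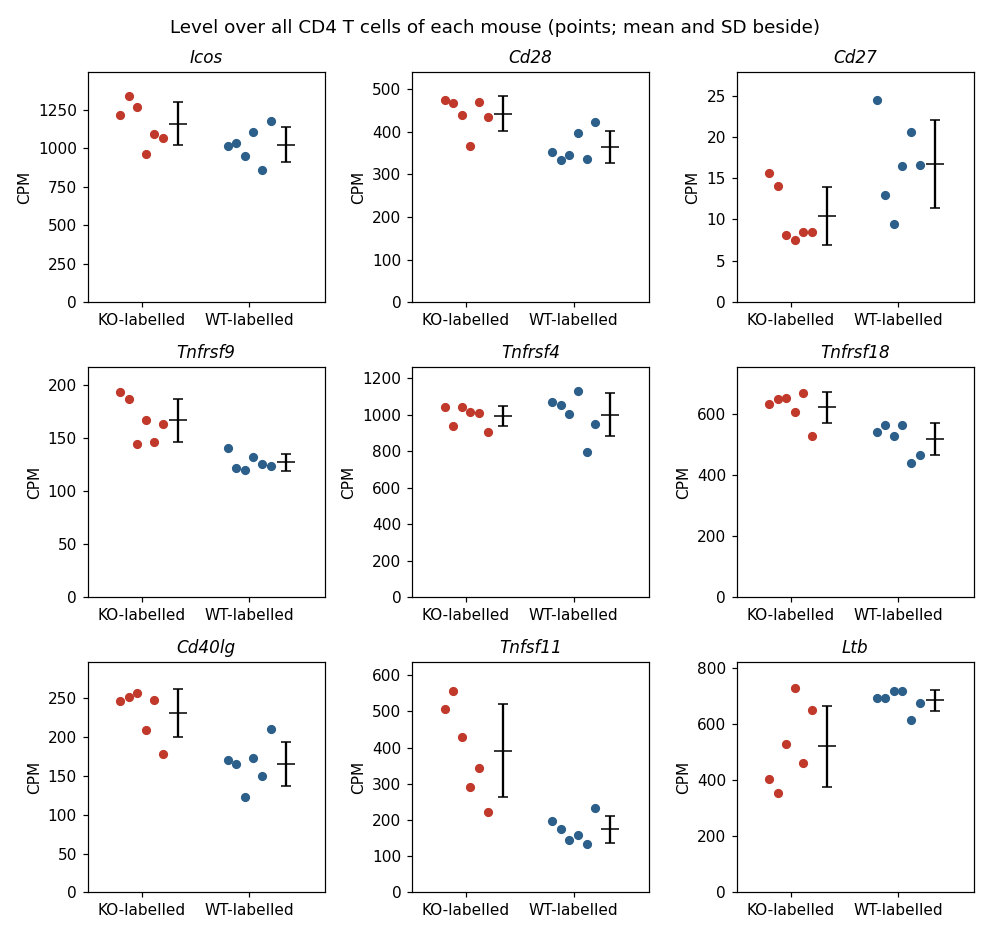
Level of each gene over all CD4 T cells of each mouse, in CPM, with 6 KO-labelled mice left of 6 WT-labelled mice (points) and the mean with its SD beside them. Tnfrsf9 alone has no overlap between the genotypes, and the KO-labelled mice spread widely for Tnfsf11 (223 to 557 CPM) and Ltb (355 to 727 CPM).

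Tnfrsf4 and Tnfrsf18, the genes of OX40 and GITR, lie 9551 bases apart on chromosome 4 (156013843 to 156016612 and 156026164 to 156028895, plus strand), and their mean levels over the 14 profiles of cluster and genotype had a Pearson r of 0.94, a description of profiles that share libraries and mice. Their stretches outside annotated exons, chr4:156013611-156013694 and chr4:156026072-156026163 (plus strand), hold no match to either pattern and are shown for comparison with the ligands' stretches.
Tnfrsf4: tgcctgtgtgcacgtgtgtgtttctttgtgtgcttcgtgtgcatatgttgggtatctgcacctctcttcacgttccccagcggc
Tnfrsf18: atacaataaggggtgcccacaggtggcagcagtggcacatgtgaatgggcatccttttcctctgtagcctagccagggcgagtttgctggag
Over all cells Tnfrsf4 stood at 992 ± 56.7 CPM in KO-labelled and 999 ± 118 CPM in WT-labelled mice (a log2 fold change of -0.05 ± 0.07, edgeR adjusted p = 0.699). Tnfrsf18 stood at 623 ± 51.5 CPM and 518 ± 52.6 CPM (0.22 ± 0.07, adjusted p = 0.0476). The Tnfrsf18 call was lost when KO-labelled mouse 1, 2, 3, 4 or 5, or WT-labelled mouse 1, 3, 5 or 6, was left out singly (adjusted p from 0.0503 to 0.100) and without KO-labelled mice 1 and 2 together (adjusted p = 0.166).

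Within clusters Tnfrsf4 fell in 3 of 7. In unnamed 3, KO-labelled mice ranged from 674 to 1027 CPM with a median of 849 CPM, and WT-labelled mice from 1121 to 1730 CPM with a median of 1374 CPM (log2 fold change -0.76 ± 0.09, edgeR adjusted p = 5.35e-06). Every KO-labelled mouse lay below every WT-labelled mouse, which held for 3.72% of the genes tested in these cells. In recirculating cells the values were 792 ± 71.9 CPM in KO-labelled and 1056 ± 115 CPM in WT-labelled mice (-0.47 ± 0.07, adjusted p = 6.35e-05), and in unnamed 1 they were 1304 ± 130.2 CPM and 1654 ± 175 CPM (-0.40 ± 0.07, adjusted p = 0.00119). All 3 falls passed without KO-labelled mice 1 and 2 as well (adjusted p from 3.35e-05 to 0.0111). In Th17 and cytotoxic cells the values were -0.42 ± 0.13 and -0.42 ± 0.15 (adjusted p = 0.0620 and 0.169). They passed without KO-labelled mouse 2 or mouse 4 in Th17 cells (adjusted p 0.0163 and 0.0319) and without KO-labelled mouse 3 in cytotoxic cells (0.0361). In cycling and regulatory cells the values were positive, 0.03 ± 0.10 and 0.27 ± 0.13, and did not pass (adjusted p = 0.922 and 0.433).

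Tnfrsf18 fell in unnamed 3 (median 556 CPM, 542 to 653, in KO-labelled and 698 CPM, 647 to 765, in WT-labelled mice, a log2 fold change of -0.36 ± 0.07, adjusted p = 0.00153), where 5 KO-labelled mice lay below every WT-labelled mouse. In the other 6 clusters it did not pass, with values from -0.19 ± 0.08 in Th17 to 0.28 ± 0.10 in cycling cells (adjusted p = 0.236 and 0.107). The cycling value passed without KO-labelled mouse 6 (adjusted p = 0.0174). Gm16008, an antisense gene in the table, overlaps Tnfrsf18, Camta1 overlaps Tnfrsf9 and Vamp1 overlaps Cd27, so reads could be split between them if strand was not used in counting, on which the sources used here say nothing.

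Tnfrsf9, which encodes the receptor CD137 (chromosome 4, 150914562 to 150946102, plus strand), was the only one of the 9 genes without overlap over all cells. KO-labelled mice ranged from 144 to 193 CPM with a median of 165 CPM, and WT-labelled mice from 119 to 140.3 CPM with a median of 124 CPM (log2 fold change 0.35 ± 0.08, edgeR adjusted p = 0.00563). Such a separation held for 6.76% of all genes tested over all cells. At the same cluster weight the value was 0.17 ± 0.08 (adjusted p = 0.196). Within clusters it went both ways. It rose in recirculating cells, at a median of 103 CPM (80.5 to 136) in KO-labelled and 59.9 CPM (53.6 to 83.9) in WT-labelled mice (0.63 ± 0.12, adjusted p = 0.00112). It fell in unnamed 3, at a median of 83.0 CPM (69.0 to 96.0) in KO-labelled and 119.7 CPM (94.4 to 147) in WT-labelled mice (-0.66 ± 0.14, adjusted p = 0.00184). In either cluster 5 of 6 KO-labelled mice lay beyond the range of the WT-labelled mice. In the other 5 clusters it did not pass, with adjusted p from 0.229 to 0.967. Its regulatory levels were the highest, 2093 ± 444 CPM in 5 KO-labelled and 1573 ± 350.1 CPM in 3 WT-labelled mice (0.36 ± 0.17, adjusted p = 0.433). Regulatory cells made up 2.58 ± 1.45% of the cells of KO-labelled mice and 1.36 ± 0.734% of those of WT-labelled mice. In those 5 and 3 mice they held 1261 and 426 Tnfrsf9 UMIs, of 4650 in all KO-labelled and 3774 in all WT-labelled mice. Their part in the rise over all cells was not tested.

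Cd27, whose product is lost from T cells after repeated activation (chromosome 6, 125232622 to 125237010, minus strand), was scarce, with 289 UMIs in all KO-labelled and 499 in all WT-labelled mice. It ranged from 7.53 to 15.6 CPM with a median of 8.52 CPM in KO-labelled mice, and from 9.43 to 24.5 CPM with a median of 16.5 CPM in WT-labelled mice. The log2 fold change over all cells was -0.73 ± 0.23 (edgeR adjusted p = 0.0428), with 4 KO-labelled mice below every WT-labelled mouse. The call was lost when KO-labelled mouse 3, 4, 5 or 6, or WT-labelled mouse 1, 4, 5 or 6, was left out singly (adjusted p from 0.0622 to 0.107), and without KO-labelled mice 1 and 2, the KO-labelled mice with the most Cd27, the value was -1.07 ± 0.22 (adjusted p = 0.00795). In cytotoxic cells, which held 344 of the 499 UMIs of WT-labelled mice, the means were 22.8 ± 10.4 CPM in KO-labelled and 44.0 ± 17.6 CPM in WT-labelled mice (-0.996 ± 0.339, adjusted p = 0.127, and 0.0254 without WT-labelled mouse 3). Th17 cells of KO-labelled mice had no Cd27 UMI in 563 cells, which allows a share of cells with a UMI of up to 0.533% (counting error only), and those of WT-labelled mice had 11 UMIs in 1658 cells.

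Of the immunoglobulin-type receptors, whose genes lie with Ctla4 on chromosome 1 (Cd28 at 60716800 to 60773359 and Icos at 60977927 to 61000320, plus strand), Cd28 rose modestly over all cells. KO-labelled mice ranged from 366 to 475 CPM with a median of 454 CPM, and WT-labelled mice from 334 to 424 CPM with a median of 349 CPM (log2 fold change 0.24 ± 0.07, edgeR adjusted p = 0.0377). KO-labelled mouse 4 alone lay inside the WT-labelled range. The call was lost when KO-labelled mouse 1, 2, 3 or 5, or WT-labelled mouse 1, 2, 3 or 5, was left out singly (adjusted p from 0.0605 to 0.0894) and without KO-labelled mice 1 and 2 together (0.182). Within the 7 clusters Cd28 did not pass, with values from -0.0022 in Th17 cells to 0.31 ± 0.10 in cytotoxic cells (adjusted p = 0.999 and 0.119). The cytotoxic value passed without WT-labelled mouse 6 (0.0379) and that of cycling cells, 0.30 ± 0.09, without KO-labelled mouse 4 (0.0171).

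Icos did not pass over all cells (1160.1 ± 140.3 CPM in KO-labelled and 1025 ± 112 CPM in WT-labelled mice, a log2 fold change of 0.14 ± 0.08, edgeR adjusted p = 0.310). In recirculating cells it fell, at a median of 979.9 CPM in KO-labelled and 1144 CPM in WT-labelled mice (-0.25 ± 0.06, adjusted p = 0.00629). There, 5 KO-labelled mice (895 to 1013 CPM) lay below every WT-labelled mouse (1113 to 1183 CPM), and KO-labelled mouse 3, at 1214 CPM, lay above them. In the other 6 clusters it did not pass. Its highest value was 0.24 ± 0.08 in cycling cells (adjusted p = 0.0878), which passed without KO-labelled mouse 5 or WT-labelled mouse 6 (0.0434 and 0.0303).

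Whether a gene's genotype difference varied between clusters was tested directly, in 1 edgeR fit over the 6 clusters in which every mouse had at least 20 cells, with the mouse as a block. It varied for 6 of the 9 genes, against 3.58% of all 7485 genes tested: Tnfrsf9 (adjusted p = 0.000309), Tnfrsf4 (0.000390), Tnfrsf18 (0.000597), Tnfsf11 (0.00183), Icos (0.00394) and Cd40lg (0.00697). Cd28, Cd27 and Ltb did not pass (adjusted p = 0.244, 0.457 and 0.235), and Cd28 did without KO-labelled mouse 3 (0.0174). Without the cycling cluster, only Tnfrsf9 and Cd40lg remained (adjusted p = 0.000424 and 0.0145). Tnfsf11, whose value in cycling cells was 1.61, had an adjusted p of 0.370 without that cluster, and Tnfrsf4, whose value in cycling cells was 0.03, had 0.280. The makeup of the cycling cluster by cell type could differ between the genotypes, and its part in these differences was not tested. With all 6 clusters but without KO-labelled mice 1 and 2, Icos was lost (adjusted p = 0.127) and the other 5 genes passed.

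Because the genotypes differed in cluster makeup, the levels over all cells were also taken with every cluster at the same weight in each mouse, and with the makeup alone varied. For the same weight, each mouse's cluster counts were scaled to the cluster's pooled share of cells and fitted as if observed. The p-values take no account of how few cells some scaled sums came from. The makeup alone was taken from shares of UMIs, not of cells. Tnfsf11 and Ltb passed at the same weight too (log2 fold change 0.70 ± 0.14, adjusted p = 0.00190, and -0.37 ± 0.10, adjusted p = 0.0226). Tnfrsf4, which did not pass over all cells, passed then (-0.42 ± 0.08, adjusted p = 0.00115). Its log2 ratio with the makeup alone varied was 0.36. Cd28, Cd27, Tnfrsf9, Tnfrsf18 and Cd40lg did not pass at the same weight (adjusted p = 0.0935, 0.0664, 0.196, 0.551 and 0.156). The value of Tnfrsf18 changed sign, to -0.07 ± 0.06, beside a makeup-alone log2 ratio of 0.30. For Tnfsf11 the makeup-alone log2 ratio was 0.37, of an observed log2 ratio of mean levels of 1.17, and for Ltb it was -0.07 of -0.39. For Tnfrsf9 it was 0.20 of 0.39, for Cd40lg 0.18 of 0.49, for Cd28 0.06 of 0.28 and for Cd27 -0.33 of -0.69.

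**Figure D3:**
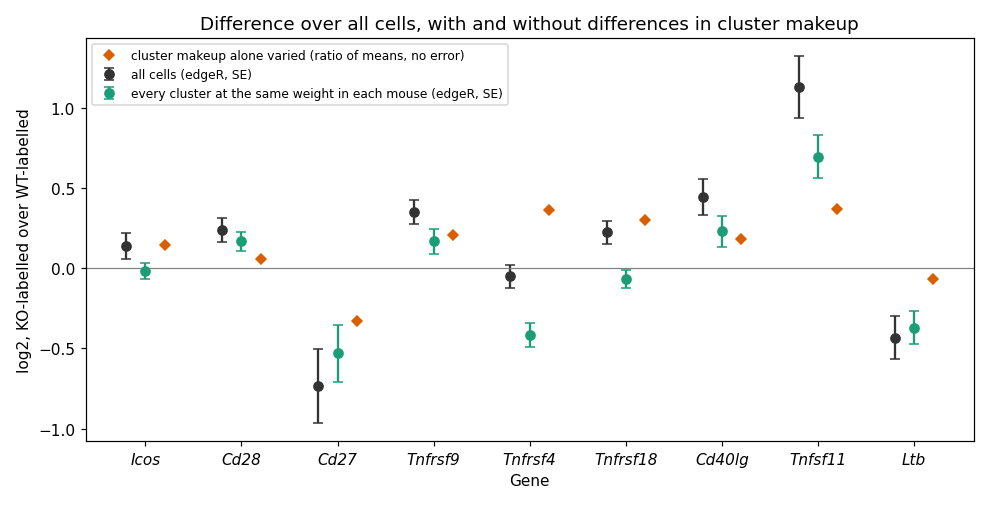
Log2 difference between KO-labelled and WT-labelled mice for each gene, over all cells and with every cluster at the same weight in each mouse (edgeR, bars are standard errors), and the log2 ratio of means when only the cluster makeup is varied. Tnfrsf4 goes to -0.42 and Tnfrsf18 to -0.07 at the same weight, while Tnfsf11 stays at 0.70 and Ltb at -0.37.

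Between clusters, which were made from the same counts and so are described without a test, regulatory cells stood apart. In both genotypes they had the highest mean Tnfrsf9, Tnfrsf4, Tnfrsf18, Cd27 and Ltb. For Tnfrsf9, Tnfrsf4, Tnfrsf18 and Cd27 their range did not overlap that of the next cluster in either genotype (for Tnfrsf4, 3199 ± 324 CPM in KO-labelled and 2598 ± 526 CPM in WT-labelled mice, with unnamed 1 next; for Tnfrsf18, 1647 ± 169 CPM and 1487 ± 73.9 CPM, with unnamed 1 next). For Cd27 the regulatory means were 141 ± 56.2 CPM and 154 ± 0.359 CPM, with cytotoxic cells next. They rest on 98 UMIs in 5 KO-labelled and 41 UMIs in 3 WT-labelled mice, so the small SD of the latter is no measure of precision. For Ltb the gap held in WT-labelled mice (1316 ± 287 CPM, recirculating next) but not in KO-labelled mice (769.6 ± 118 CPM, Th17 next). Regulatory cells had the lowest mean Cd40lg and Cd28 in both genotypes, Cd28 overlapping its neighbour in the order.

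Cytotoxic cells had the lowest mean Icos, Tnfrsf4, Tnfrsf18 and Tnfsf11 in both genotypes. For Tnfrsf4 they lay apart from the next cluster, cycling cells, in both (260.2 ± 104.5 CPM in KO-labelled and 355 ± 55.9 CPM in WT-labelled mice), and for the other 3 genes their range overlapped that of their neighbour. Th17 cells had the highest mean Icos (1559 ± 260.2 CPM and 1437 ± 122 CPM) and Tnfsf11 (557 ± 241 CPM and 356 ± 64.1 CPM), overlapping the next cluster in both genotypes. Unnamed 3 had the highest mean Cd28 and Cd40lg and the lowest Ltb. For Cd40lg its lead over Th17 cells had no overlap in WT-labelled mice (316 ± 62.1 CPM), but did overlap in KO-labelled mice (302 ± 39.1 CPM). Most other neighbours in the order overlapped.

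**Figure D4:**
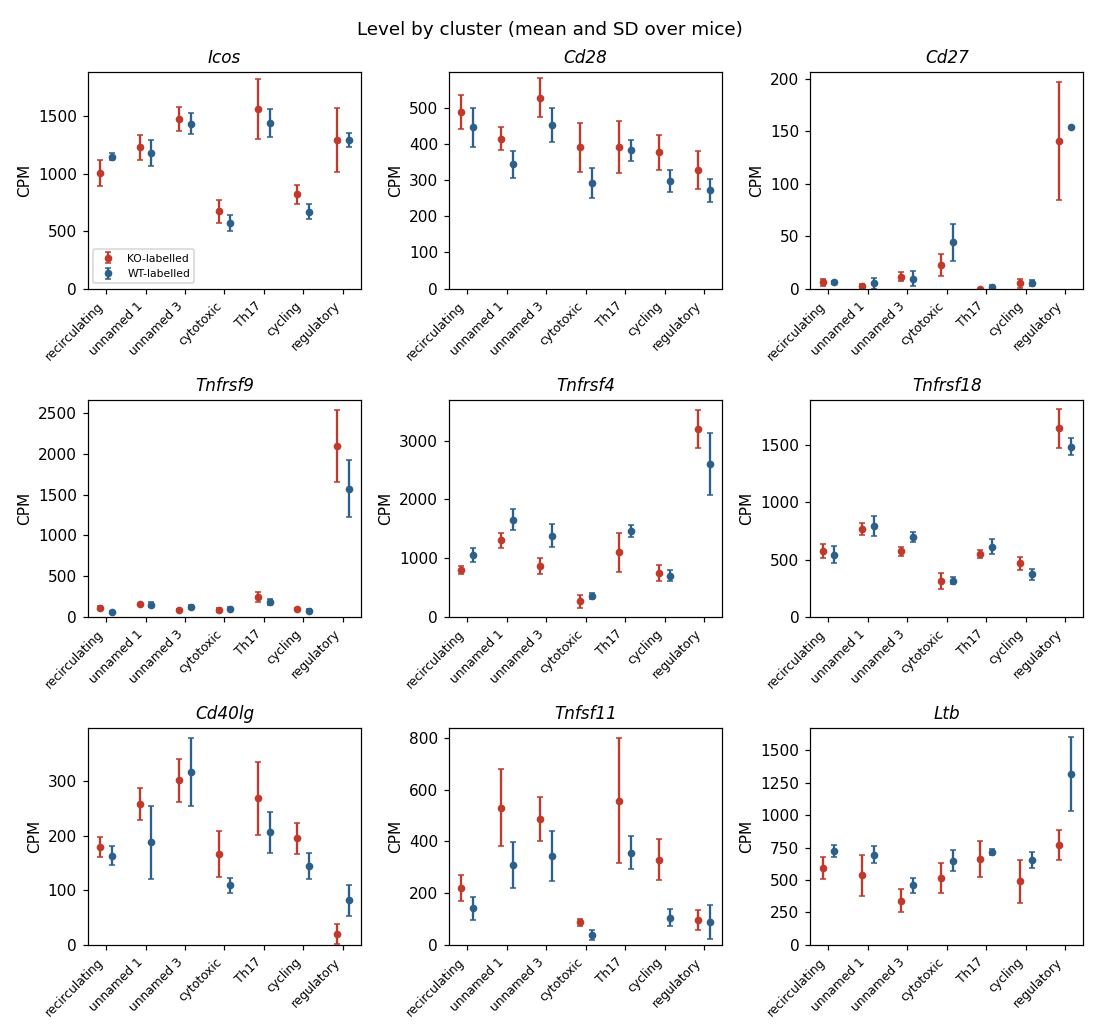
Mean level of each gene in each cluster, in CPM with the SD over mice, KO-labelled left of WT-labelled. Each point is 6 mice, except in regulatory cells (5 KO-labelled and 3 WT-labelled). Tnfrsf9 is far highest in regulatory cells, 2093 CPM in KO-labelled and 1573 CPM in WT-labelled mice, and Tnfsf11 is 329 and 104 CPM in cycling cells.

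Shares of cells with at least 1 UMI were taken after thinning each cell to 1500 UMIs, below which 491 cells from KO-labelled mice and 407 from WT-labelled mice fell and were left out. Tnfsf11 was seen in 29.2 ± 7.39% of the cells of KO-labelled mice and 14.3 ± 2.87% of those of WT-labelled mice (38.7% and 21.7% without thinning), with the lowest shares, 7.63% and 4.35%, in cytotoxic cells (12.3% and 6.42% without thinning), which had median depths of 2259 and 2480 UMIs. Ltb was seen in 44.8 ± 9.18% and 55.4 ± 2.38% (60.3% and 72.7% without thinning). Tnfrsf9 was seen in 79.2 ± 3.71% of regulatory cells of KO-labelled mice and 76.2 ± 11.1% of those of WT-labelled mice (87.1% and 86.0% without thinning), and its highest mean share elsewhere was 16.8%, in unnamed 1. No cluster is known to lack these genes, so the level that free RNA could give was not measured. The lowest shares, which for Tnfsf11 differed between the genotypes, are not a background level.

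The non-member genes whose mean log2(CPM + 10) profile over the 14 combinations of cluster and genotype was most like each gene's, among 5426 genes with at least 20 CPM, had a Pearson r of 0.84 to 0.97, given as a description. The closest were Paxbp1 and Odc1 for Icos, Isca1 and D8Ertd738e for Cd28, Chchd10 and Zfp36 for Cd27, Neb and Itgav for Tnfrsf9, and Odc1 and Sdhaf1 for Tnfrsf4. For the others they were Coq8a and Crlf3 for Tnfrsf18, Pgm2l1 and Eml4 for Cd40lg, Gabpb1 and Sgtb for Tnfsf11, and Tmem160 and Serpinb6a for Ltb. Among the 9 genes, Cd27 and Cd40lg were least alike (r = -0.82).

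Other genes of the same families were counted over all cells, beside a median log2 fold change of -0.00022 over all genes tested, of which 14.2% were called, 7.04% higher and 7.21% lower. Nothing particular to a list is read from its count. Of 8 other TNF family ligands tested, 0 rose and 2 fell (median -0.27): Tnfsf14, which encodes LIGHT, at 16.2 ± 1.51 CPM in KO-labelled and 21.4 ± 3.37 CPM in WT-labelled mice (-0.44 ± 0.11, edgeR adjusted p = 0.0123), and Lta, the partner of Ltb, at 21.8 ± 9.78 CPM and 35.0 ± 8.40 CPM (-0.73 ± 0.22, adjusted p = 0.0389). Lta and Tnf lie 6844 and 3060 bases from Ltb. Of 11 other TNF receptors, 1 rose and 2 fell (median -0.24). Tnfrsf10b, the mouse receptor for TRAIL, rose (21.0 ± 8.94 CPM and 6.40 ± 1.59 CPM, 1.67 ± 0.27, adjusted p = 0.000708), and the death receptors Fas (49.8 ± 7.61 CPM and 88.5 ± 14.5 CPM, -0.87 ± 0.12, adjusted p = 0.000145) and Tnfrsf25 (39.4 ± 9.73 CPM and 64.3 ± 12.02 CPM, -0.74 ± 0.15, adjusted p = 0.00420) fell.

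Of 11 other immunoglobulin-type costimulators and their ligands, 0 rose and 2 fell (median -0.15), both at low levels: Crtam, a receptor of cytotoxic lymphocytes, at 1.06 ± 0.720 CPM in KO-labelled and 8.003 ± 3.13 CPM in WT-labelled mice (a log2 fold change of -2.95 ± 0.34, edgeR adjusted p = 4.06e-05), and Cd80, a ligand of CD28, at 2.90 ± 1.40 CPM and 6.64 ± 2.56 CPM (-1.24 ± 0.31, adjusted p = 0.0129). Cytotoxic cells, at 8.63% of cells in KO-labelled mice against 33.2% in WT-labelled mice, differed in share beside the Crtam value, and their part in it was not tested. Of 28 genes of downstream signalling, 4 rose and 1 fell (median 0.12). Those named by rule are Pik3r1, a regulatory subunit of phosphoinositide 3-kinase (150.6 ± 38.8 CPM and 84.5 ± 18.7 CPM, 0.79 ± 0.17, adjusted p = 0.00450), Malt1, a protease of the NF-kappaB pathway (173 ± 25.1 CPM and 127 ± 14.8 CPM, 0.41 ± 0.09, adjusted p = 0.00887), and Traf1, an adaptor of TNF receptors (806 ± 65.7 CPM and 664 ± 45.4 CPM, 0.24 ± 0.06, adjusted p = 0.0123). Birc2, a ubiquitin ligase bound by TRAF proteins, fell (113 ± 4.24 CPM and 136 ± 11.3 CPM, -0.31 ± 0.06, adjusted p = 0.00228).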

How the data were processed

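The authors deposited UMI counts per gene and cell and a table of cells with the total count, the percent of mitochondrial reads, the mouse and the cluster. Cell Ranger 3.1.0 and Seurat 3.1.5 are named in the submitters' processing notes. How the authors filtered cells and genes, and whether doublets were removed before deposit, is not stated there, in the labels or in the files, and no doublet caller was run here. All deposited cells were used, and their UMI sums and genotypes matched between the deposited tables in 18860 of 18860 cells. Hashtag antibodies assign each cell to 1 of 12 mice.

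Counts were added up over each mouse's cells, and over its cells in a cluster where it had at least 20. CPM is a gene's count over the total of the same sum. The genotypes were compared with edgeR 4.0.16 (R 4.3.3; TMM, filterByExpr, quasi-likelihood test) with Benjamini-Hochberg adjustment over all genes tested and a threshold of 0.05. The difference between clusters was an F test of the interaction of genotype and cluster with the mouse as a block. Clusters were the authors' own and are not tested against each other. DESeq2 1.42.0 and limma 3.58.1 were alternatives. The procedure was tested on simulated data: over all cells it recovered 98 of 99 genes changed by 1 on the log2 scale. Changes smaller than 1, as most of those given here are, were not simulated. The figure therefore does not tell how often such changes, or changes within clusters, would be missed. The genes named beyond the 9 are up to 3 called genes with the smallest p in each direction per family list and the 2 genes most alike in profile. The 9 genes and the lists were chosen with earlier results of these data known. The limit given for Cd27 in Th17 cells covers counting error only, whereas the SDs and standard errors include the spread between mice.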

Additional observations from a re-analysis of the deposited data

Results flagged for a closer look

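In 10 of 135 groups of mice examined, 1 mouse lay far from the others by Dixon's criterion, where chance gives about 1 in 20, or 6.8. Cd28 was low in KO-labelled mouse 4, at 366 CPM over all cells (nearest mouse 436 CPM) and 396 CPM in recirculating cells (489.8 CPM). In recirculating cells, Icos was high in KO-labelled mouse 3 (1214 CPM, nearest 1013 CPM) and Tnfrsf18 low in KO-labelled mouse 6 (447 CPM, nearest 578 CPM). In unnamed 3, Tnfrsf18 was high in KO-labelled mouse 5 (653 CPM, nearest 567 CPM) and Cd40lg low in KO-labelled mouse 6 (227 CPM, nearest 293 CPM). In cytotoxic cells, WT-labelled mouse 6 was high for both Cd40lg (136 CPM, nearest 109 CPM) and Tnfsf11 (78.6 CPM, nearest 36.7 CPM). Tnfrsf4 was low in Th17 cells of KO-labelled mouse 2 (463 CPM, nearest 1055 CPM), and Ltb was high in cycling cells of WT-labelled mouse 1 (777 CPM, nearest 649.6 CPM).

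The genotype difference varied between clusters (edgeR interaction test) for Icos (adjusted p = 0.00394), Cd40lg (0.00697), Tnfrsf9 (0.000309), Tnfrsf4 (0.000390), Tnfrsf18 (0.000597) and Tnfsf11 (0.00183).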

How the results depend on the processing

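Of 1105 fold changes of the 9 genes recomputed under alternatives, 963 kept their direction and their side of the threshold, 70 lost the call, 26 gained one, 1 reversed and 45 changed sign while past the threshold in neither. The reversed value was Tnfrsf18 over all cells at the same cluster weight (-0.0677). Over all cells, 3 of the 9 genes were called without KO-labelled mice 1 and 2, and 3 at the same cluster weight. Without KO-labelled mice 1 and 2, an alternative chosen after seeing the data, 770 genes were called over all cells, 175 in unnamed 1, 203 in unnamed 3, 176 in cycling and 0 in regulatory cells, and 0 of the 9 genes in regulatory cells. With no filter on low counts, 307 genes were called in cytotoxic and 44 in regulatory cells, and 1 of the 9 genes in Th17 and 2 in cycling cells. With at least 10 cells a mouse, 0 of the 9 genes and 2 genes in all were called in regulatory cells. The interaction called 482 genes with limma-voom, 164 without cycling cells (2 of the 9 genes) and 133 without KO-labelled mice 1 and 2. The cause of these changes was not tested.

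With 1 mouse left out, 3 to 6 of the 9 genes were called over all cells (1073 to 1867 of all genes), 4 to 5 in recirculating cells (350 to 471), 2 to 3 in unnamed 1 (199 to 358), 4 to 5 in unnamed 3 (276 to 397), 2 to 3 in cytotoxic (141 to 197), 0 to 1 in Th17 (223 to 312), 1 to 4 in cycling (213 to 358) and 0 to 1 in regulatory cells (0 to 12), and 6 to 7 by the interaction (183 to 296). No paired analysis was possible because the hashtags number KO-labelled mice 1 to 6 and WT-labelled mice 7 to 12, and the numbers 1 to 6 given here to WT-labelled mice are only names. Cd27 had too few counts to be tested in 5 clusters, and the regulatory comparison rests on 235 cells from KO-labelled mice, against 92 from WT-labelled ones.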
